A study of Mus musculus with 4 samples.

Results

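The 10 genes described here code for the core of antigen presentation by major histocompatibility complex (MHC) class I: the heavy chains H2-K1 and H2-D1, the light chain B2m, the peptide transporter subunits Tap1 and Tap2, the loading factor Tapbp, the immunoproteasome subunits Psmb8, Psmb9 and Psmb10, and the transactivator Nlrc5. They were taken as named genes of the pathway and found by pairing the Ensembl IDs of both deposited count tables with mouse symbols. All 10 were among the 55536 genes of the tables. The cells were primary fibroblasts grown from ear pieces of C57BL/6 mice, in 2 states that the sample titles call AF357425-High and AF357425-Low. AF357425 is a small nucleolar RNA (snoRNA) of the C/D box type, encoded in the imprinted Dlk1-Dio3 region and paired with SNORD113-6 in the title of the series. All cells had first been kept in KN93, which blocks CaM kinase II and served to bring the cells into the same cell cycle stage, for 48 h, and were then transfected for 24 h. The sample characteristics describe the High state as overexpression and the Low state as inhibition of AF357425, whereas the treatment protocol names gapmers (antisense oligonucleotides) against AF357425 or a scrambled control. The sources used here do not say which transfection stands behind each state. Each state had 1 library of RNA pulled down with fibrillarin, the methyltransferase of C/D box snoRNPs, after ribosomal RNA depletion, and 1 library of whole-cell RNA. This makes 4 libraries with 1 in each group, so there was no test between groups and no estimate of the spread between cultures.

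Class I molecules show peptides from inside the cell to CD8 T cells. The proteasome cuts proteins into peptides, and interferon makes cells replace its constitutive catalytic subunits by Psmb8, Psmb9 and Psmb10, which form the immunoproteasome. Tap1 and Tap2 pump the peptides into the endoplasmic reticulum, Tapbp (tapasin) holds the transporter next to the empty heavy chain, and a heavy chain leaves for the cell surface only when folded with B2m and a peptide. Nlrc5 is a nuclear protein of the NLR family that binds the class I promoters through partner factors and raises the transcription of heavy chain genes, B2m, Tap1 and Psmb9. In fibroblasts the pathway is on at a low level and is raised by type I and type II interferon.

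Of the 10 genes, 3 had reads enough to be compared (B2m, Psmb10 and Nlrc5), and all 3 were higher in the AF357425-High than in the AF357425-Low pulldown, by 2.33-fold, 7.92-fold and 10.56-fold. None of the 3 passed the 2-fold line between the states in the whole-cell libraries. The other 7, which all lie in the MHC region of chromosome 17, were listed at 0 reads or held 1 read in a single library. These 7 genes were part of a stretch of the chromosome in which nearly every gene was listed at 0, including genes with general roles in the cell.

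The libraries held between 21693030 and 27832061 reads assigned to genes. Mitochondrially encoded RNA made up 65.4% of the gene-assigned reads in the High and 61.8% in the Low pulldown, against 1.06% and 1.05% in whole-cell RNA of the High and Low states, so that a level in the pulldown shares its total with mitochondrial RNA. Of all fragments, 9.38% in the High and 8.54% in the Low pulldown fell on overlapping genes and were counted for none of them, against 1.05% and 1.09% in whole-cell RNA of the High and Low states. AF357425 itself was listed at 0 in all 4 libraries, so the state labels could not be checked against it. Levels are given as counts per 1000000 gene-assigned reads (CPM). They are not per length, so they are compared between libraries and not between genes.

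The heavy chains come first, since they carry the peptide. H2-K1 (ENSMUSG00000061232, chr17:33996012-34000619, GRCm38) and H2-D1 (ENSMUSG00000073411, chr17:35263094-35267497) were listed at 0 in the High and Low pulldowns and in the High and Low whole-cell libraries. Their coding sequences resemble each other and those of other H2 genes. Fragments that aligned to several places, 11.2% to 18.3% of each library, were counted for no gene. Whether this bears on the counts of H2-K1 and H2-D1 was not tested.

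The peptide transporter and the loading factor gave the same picture. Tap2 (chr17:34204479-34216321) was listed at 0 in all 4 libraries. Tap1 (chr17:34187556-34197225) had 1 read in High whole-cell RNA and was listed at 0 in the other 3 libraries. Tapbp (chr17:33919478-33929290) had 1 read in the High pulldown and was listed at 0 in the other 3. Of the immunoproteasome subunits, Psmb8 (chr17:34198195-34201454) and Psmb9 (chr17:34182030-34187330) were listed at 0 in all 4 libraries. Psmb9 and Tap1 are neighbours transcribed away from each other, with 225 bases between their annotated spans. Together the 7 genes held 2 reads, and no ratio is given for any of them.

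The 7 genes fell in a block of 1742 kb that ran from Angptl4 (chr17:33774900-33781575) to Tcf19 (chr17:35512730-35516837). The block was delimited after the values had been seen, by going out from H2-K1 on both sides until a protein-coding gene reached 100 reads in a whole-cell library. Within it, 98 of 105 protein-coding genes (93.3%) were listed at 0 in all 4 libraries. In the rest of chromosome 17 this held for 252 of 907 protein-coding genes (27.8%). Over all protein-coding genes outside the block, those of chromosome 17 included, it held for 4882 of 20813 (23.5%). At least 10 reads in a whole-cell library were found for 2 of the 105 genes in the block (1.91%), C4b and H2-Q4, against 56.6% of the genes in the rest of the chromosome. The rule kept genes with 100 or more whole-cell reads out of the block, so this contrast is in part set by it. By the same rule the gene just beyond each edge reached 100 reads in a whole-cell library. Rab11b, just before the block, had 321 reads in the High and 468 in the Low pulldown, and 999 and 845 in High and Low whole-cell RNA. Cchcr1, just after it, had 5 and 12 reads in the High and Low pulldowns, and 145 and 130 in High and Low whole-cell RNA.

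**Figure D1:**
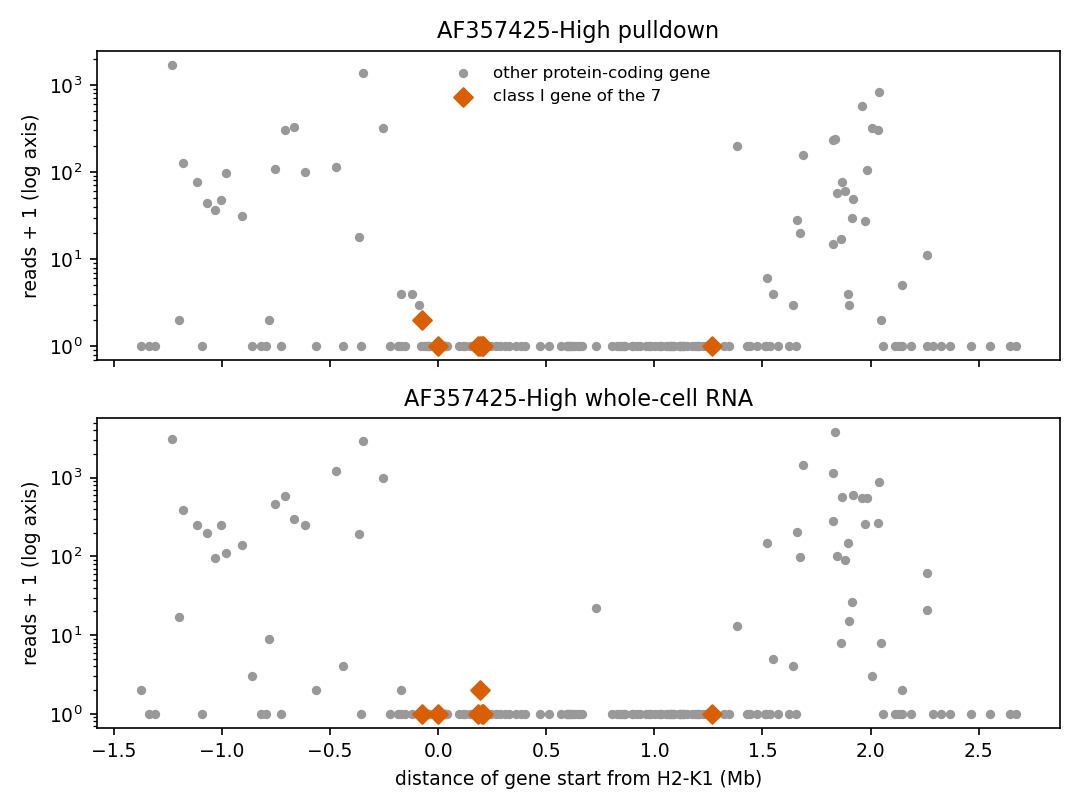
Reads plus 1 (log axis) of each protein-coding gene in and around the chromosome 17 block against the distance of its start from H2-K1 in Mb, in the AF357425-High pulldown and in AF357425-High whole-cell RNA, with the 7 class I genes of this chromosome as diamonds. The diamonds lie at 0 or 1 read in a stretch of mostly zeros. By the rule that set the block, it ends on both sides at a gene with 100 or more reads in a whole-cell library.

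Genes of the block with general roles in the cell were listed at 0 as well. They are named here after their values were seen. Rps18, a protein of the small ribosomal subunit, Brd2, a bromodomain protein that reads acetylated histones, Ddx39b, an RNA helicase of mRNA export, Csnk2b, the regulatory subunit of casein kinase 2, and Bag6, a chaperone of membrane protein targeting, had 0 reads in all 4 libraries. Rps28, another ribosomal protein, had 3 and 5 reads in the High and Low pulldowns, and 1 and 0 in High and Low whole-cell RNA. A count of 0 in this block can therefore be a failed estimate, and no upper limit on the level of H2-K1, H2-D1, Tap1, Tap2, Tapbp, Psmb8 or Psmb9 is drawn from it. The cause of the zeros was not tested.

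B2m (ENSMUSG00000060802, chr2:122147687-122153082) codes for the light chain that every class I heavy chain needs to fold, and its gene lies outside the MHC. It had 7812 reads in the High and 4421 in the Low pulldown, and 4173 and 4375 reads in High and Low whole-cell RNA. In CPM this was 302 (exact Poisson 95% interval 295 to 309) in the High and 159 (154 to 164) in the Low pulldown, against 189 (183 to 195) and 202 (196 to 208) in High and Low whole-cell RNA. On this scale the High pulldown had the highest level and the Low pulldown the lowest, with the whole-cell libraries between them. Without mitochondrial reads in the totals, B2m had 872 CPM in the High and 416 CPM in the Low pulldown, against 191 and 204 CPM in High and Low whole-cell RNA, so that both pulldowns lay above the whole-cell libraries. The intervals hold for counting error alone, because reads copied by PCR and lacking molecular identifiers do not each stand for a molecule. The span of B2m overlaps that of Patl2, and the sources used here do not give the strand setting of the counting.

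Between the states, the libraries were scaled by the trimmed mean of M-values (TMM), and a gene was called higher or lower only where the whole exact (Clopper-Pearson) 95% interval of its ratio lay beyond 2-fold. The log2 ratio of High over Low for B2m was 1.22 in the pulldown (interval 1.17 to 1.28), which passed the line. In whole-cell RNA it was -0.16 (-0.22 to -0.10), well inside the line and of the opposite sign. The pulldown call depended on the scaling: scaled by library totals instead, the ratio was 0.93, below the line, while the median over all genes stood at -0.31 instead of -0.01. In bulk RNA, fewer cells that make a transcript and less of it per cell cannot be told apart.

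The 250 bases upstream of the B2m start are printed because they hold the letters of several elements known to drive class I genes. The sequence is from RefSeq (GRCm38.p6, chr2:122147437-122147686, plus strand). Capitals mark, from left to right, an ISRE-like stretch (GAAA, 2 bases of any kind and GAAA again), an NF-kappa-B-like stretch, the half-site TGACG and CCAAT. The NF-kappa-B-like stretch (GGGRNNYYCC, with R a purine, Y a pyrimidine and N any base) and CCAAT were read on the opposite strand.
B2m: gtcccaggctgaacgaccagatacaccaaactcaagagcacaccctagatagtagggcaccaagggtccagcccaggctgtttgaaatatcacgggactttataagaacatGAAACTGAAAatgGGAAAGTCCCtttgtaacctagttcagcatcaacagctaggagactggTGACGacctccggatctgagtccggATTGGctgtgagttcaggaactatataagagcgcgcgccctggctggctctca
The ISRE-like letters, of the kind bound by interferon regulatory factors, lay at positions -139 to -130 counted from the start, the NF-kappa-B-like letters at -126 to -117, TGACG at -78 to -74 and CCAAT at -53 to -49. None of these stretches overlapped another. Of 27025 mouse promoters in the same table, 3.04% held the ISRE-like, 7.01% the NF-kappa-B-like letters, 17.9% TGACG and 34.5% CCAAT, each in a window of the same length with both strands searched. A match describes letters and is not a shown binding site.

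Psmb10 (ENSMUSG00000031897, chr8:105935728-105938392), the immunoproteasome subunit that takes the place of Psmb7 and cuts after basic residues, is the immunoproteasome gene outside the MHC. It had 138 reads in the High and 23 in the Low pulldown, and 143 and 123 in High and Low whole-cell RNA. In CPM this was 5.34 (4.48 to 6.31) in the High and 0.826 (0.524 to 1.24) in the Low pulldown, against 6.48 (5.46 to 7.63) and 5.67 (4.71 to 6.77) in High and Low whole-cell RNA. On this scale the Low pulldown stood below the other 3 libraries, whose intervals overlapped each other. Without mitochondrial reads in the totals, Psmb10 had 15.4 CPM in the High and 2.16 CPM in the Low pulldown, against 6.54 and 5.73 CPM in High and Low whole-cell RNA, so that the High pulldown then stood above whole-cell RNA. The log2 ratio of High over Low was 2.99 in the pulldown (2.34 to 3.69) and 0.13 in whole-cell RNA (-0.23 to 0.49). No other RefSeq gene overlaps its span.

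The 250 bases upstream of Psmb10 (GRCm38.p6, chr8:105938393-105938642, minus strand) are printed beside those of B2m because Psmb10 had the larger ratio and its window held none of the 6 motifs searched.
Psmb10: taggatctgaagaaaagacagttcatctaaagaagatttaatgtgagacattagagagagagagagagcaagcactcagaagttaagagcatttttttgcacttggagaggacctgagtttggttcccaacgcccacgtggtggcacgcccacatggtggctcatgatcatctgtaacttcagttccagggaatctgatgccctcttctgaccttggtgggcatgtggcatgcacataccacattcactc
The motifs searched besides those named for B2m were the GAS-like TTCNNNGAA, found in 7.18% of all promoters, and the SP1-like GGGCGG, found in 32.9%. That these letters are not in the window says nothing about the factors.

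Nlrc5 (ENSMUSG00000074151, chr8:94434335-94527272), the transactivator, had the largest pulldown ratio of the 3. It had 272 reads in the High and 34 in the Low pulldown, and 170 and 145 in High and Low whole-cell RNA. This was 10.52 CPM (9.31 to 11.8) in the High and 1.22 CPM (0.846 to 1.71) in the Low pulldown, against 7.70 CPM (6.58 to 8.95) and 6.68 CPM (5.64 to 7.87) in High and Low whole-cell RNA. The High pulldown stood above the other 3 libraries and the Low pulldown below them. The log2 ratio of High over Low was 3.40 in the pulldown (2.88 to 3.96) and 0.14 in whole-cell RNA (-0.19 to 0.47). Its span overlaps the annotated genes 9330175E14Rik, Gm51584 and Mir7072.

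**Figure D2:**
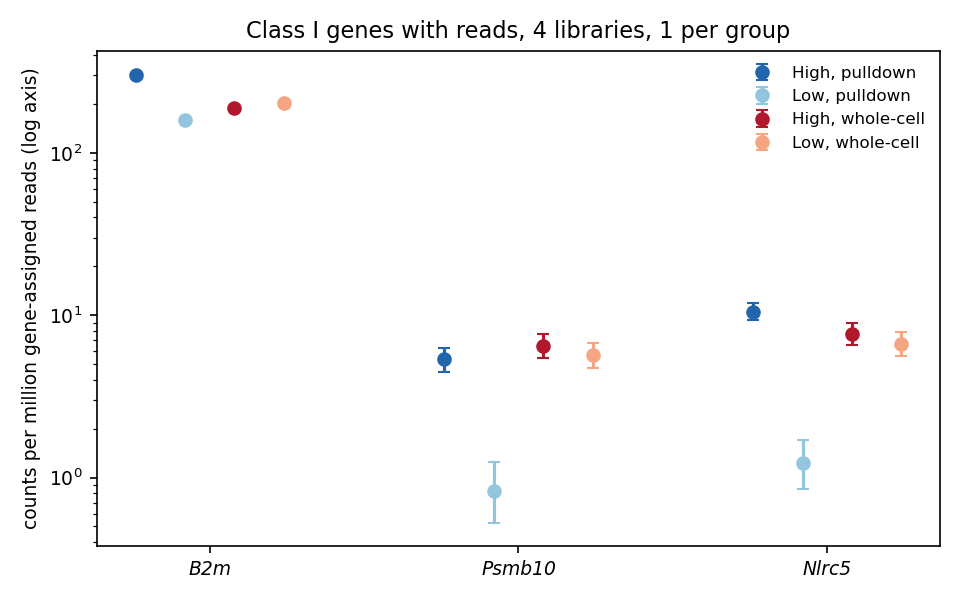
Level in CPM (log axis) of B2m, Psmb10 and Nlrc5 in the 4 libraries, High left of Low, with exact Poisson 95% intervals for counting error only. The whole-cell values of the states lie close together, while the Low pulldown lies at 159 CPM for B2m, 0.826 CPM for Psmb10 and 1.22 CPM for Nlrc5, each below the High pulldown.

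Over all genes measured (a mean of at least 1 CPM in the pair of libraries), 3.43% were called higher and 2.90% lower in the High than in the Low pulldown, and the median log2 ratio was -0.01. With library totals in place of TMM, 238 genes were higher and 608 lower, against 368 and 311. Of the class I genes measured, 3 of 3 were higher, with a median log2 ratio of 2.99, the value of Psmb10. Psmb10, at 5.34 CPM in the High and 0.826 CPM in the Low pulldown, passed the filter only through the High pulldown. A gene this low in 1 pulldown is counted only if it is higher in the other. In whole-cell RNA, 0.111% of all measured genes were called higher and 0.133% lower in High, and 0 of 3 of the class I genes were called. The 7 genes of the chromosome 17 block are in neither count, so the pathway as a whole was not read out here.

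Within each state, the pulldown was also set against whole-cell RNA, with both scaled by their library totals. In the High state the log2 ratio of pulldown over whole-cell RNA was 0.68 for B2m (0.62 to 0.73), 0.45 for Nlrc5 (0.17 to 0.74) and -0.28 for Psmb10 (-0.63 to 0.07). In the Low state it was -0.34 for B2m (-0.41 to -0.28), -2.45 for Nlrc5 (-3.04 to -1.90) and -2.78 for Psmb10 (-3.49 to -2.13). The medians over all measured genes were -2.16 in the High and -1.76 in the Low state, so in the High state all 3 lay above the median and none was called, where 2.26% of all measured genes were higher and 74.3% lower, and in the Low state B2m lay above it and Nlrc5 and Psmb10 below it. Low-state calls were made for Nlrc5 and Psmb10, both lower, where 2.54% of all measured genes were higher and 62.5% lower. Called higher or lower in both states were 0 of 3 class I genes, against 1.56% and 59.7% of all genes, or 200 and 7634 genes, where TMM gave 1151 and 2258. With mitochondrial reads left out of the totals, the ratio of B2m in the Low state was 1.03 and that of Psmb10 in the High state 1.23, so their signs rest on the scaling. The calls within a state rest on it too. In the High state B2m and Nlrc5 were higher under each of the 4 other scalings, with ratios of 2.19 to 2.58 and 1.964 to 2.352. Psmb10 was higher in the High state with TMM (1.57, interval 1.22 to 1.91) and with the median of ratios (1.62), but not without the 20 most abundant genes or without mitochondrial genes. In the Low state the lower calls of Nlrc5 and Psmb10 were lost under each of these 4 scalings, with ratios of -1.13 to -0.98 and -1.46 to -1.30.

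The difference of the log2 ratios of High over Low, pulldown minus whole-cell RNA, was 1.38 for B2m (normal-approximation 95% interval 1.3 to 1.46), 2.86 for Psmb10 (2.13 to 3.58) and 3.26 for Nlrc5 (2.66 to 3.87). All 3 lay beyond the 2-fold line, where 2.65% of all genes that had 10 or more reads in every library did so in this direction and 1.66% in the other. With library totals the value for B2m was 1.02 (0.94 to 1.10), which no longer passed, and Psmb10 and Nlrc5 still lay beyond the line.

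The other class I heavy chains of the H2 family were mostly listed at 0 too. Of 28 genes in this group, 25 had an ID in the tables, 18 of them were listed at 0 in all 4 libraries, and 6 lie in the chromosome 17 block. Measured in the pulldown were 4, of which 3 were higher and none lower, against 3.43% and 2.90% of all measured genes. The median log2 ratio of the 4 was 2.54, against -0.01 over all measured genes. H2-T22 (chr17:36037128-36042742), a non-classical chain seen by gamma-delta T cells, had 834 reads in the High and 205 in the Low pulldown, and 875 and 721 in High and Low whole-cell RNA. Its log2 ratio was 2.43 in the pulldown (2.20 to 2.65) and 0.19 in whole-cell RNA (0.04 to 0.33). H2-T23 (chr17:36029977-36032701), the Qa-1 chain that shows leader peptides of other class I molecules to NK cells, had 306 and 64 reads in the High and Low pulldowns, and 266 and 344 in High and Low whole-cell RNA. Its log2 ratio was 2.66 in the pulldown (2.27 to 3.07) and -0.46 in whole-cell RNA (-0.70 to -0.23). H2-Q4 (chr17:35379617-35384674), inside the block, had 196 and 22 reads in the High and Low pulldowns but only 12 and 6 in High and Low whole-cell RNA. Its log2 ratio was 3.56 in the pulldown (2.92 to 4.26). At 0.790 CPM in the Low pulldown, H2-Q4 passed the filter only through the High pulldown. The fourth gene, H2-T24, had 318 reads in the High and 684 in the Low pulldown, against 2 and 0 in High and Low whole-cell RNA, and its log2 ratio in the pulldown was -0.70 (-0.90 to -0.51). Counts of these chains are uncertain, since H2 genes resemble each other and H2-T22, H2-T23 and H2-T24 overlap the annotated gene A930015D03Rik.

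The upstream windows of H2-T22 and H2-T23, the heavy chains with the most whole-cell reads, are printed because both, like B2m, held ISRE-like letters. They are from RefSeq (GRCm38.p6, chr17:36042743-36042992 for H2-T22 and chr17:36032702-36032951 for H2-T23, minus strand), with the same motifs in capitals, on either strand.
H2-T22: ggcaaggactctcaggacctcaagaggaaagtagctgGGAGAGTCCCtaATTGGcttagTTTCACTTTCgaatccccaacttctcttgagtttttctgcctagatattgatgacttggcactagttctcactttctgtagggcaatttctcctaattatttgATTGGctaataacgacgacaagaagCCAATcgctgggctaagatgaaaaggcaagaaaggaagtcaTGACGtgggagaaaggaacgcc
H2-T23: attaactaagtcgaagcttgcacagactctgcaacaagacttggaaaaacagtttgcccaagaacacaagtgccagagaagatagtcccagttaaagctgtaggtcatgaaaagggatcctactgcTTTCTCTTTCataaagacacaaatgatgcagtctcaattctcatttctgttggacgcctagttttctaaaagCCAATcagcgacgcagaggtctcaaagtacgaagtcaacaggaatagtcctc
The ISRE-like letters lay on the opposite strand at -191 to -182 in H2-T22 and at -124 to -115 in H2-T23. H2-T22 also held NF-kappa-B-like letters on the opposite strand at -213 to -204, CCAAT, on either strand, in 3 places, and TGACG at -22 to -18. H2-T23 held CCAAT at -52 to -48. The windows of H2-Q4 and of the proteasome activator genes Psme1 and Psme2 were searched too. These genes were also called higher in the High pulldown, and their windows held no ISRE-like letters. Of the 10 class I genes, 8 had a promoter in the table. ISRE-like letters were found in 1 of them (B2m), GAS-like letters in 1 (Psmb8), NF-kappa-B-like letters in 3 (B2m, H2-D1 and H2-K1), CCAAT in 6, TGACG in 5 and GGGCGG in 3.

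Class I-like genes outside the H2 region did not move one way. Of 12 genes, 7 were measured in the pulldown, with a median log2 ratio of 0.29. Procr, the endothelial protein C receptor with a class I-like fold, was higher, with 261 and 73 reads in the High and Low pulldowns and a log2 ratio of 2.24 (1.86 to 2.63), against -0.21 (-0.38 to -0.03) in whole-cell RNA. Ulbp1, a ligand of the activating NK receptor NKG2D, was lower, with 485 reads in the High and 1655 in the Low pulldown and a log2 ratio of -1.37 (-1.52 to -1.22). The span of Ulbp1 overlaps that of Gm46209.

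Among the other catalytic and activator subunits of the proteasome, 2 of 8 measured genes were higher in the High pulldown and none was lower. Over all measured genes 3.43% were higher and 2.90% lower. The median log2 ratio of the 8 genes was 0.41. Both higher genes code for subunits of PA28, the interferon-inducible cap that opens the proteasome. Psme1 had 997 and 309 reads in the High and Low pulldowns, and 351 and 281 in High and Low whole-cell RNA. Psme2 had 668 and 274 reads in the High and Low pulldowns, and 867 and 677 in High and Low whole-cell RNA. The log2 ratio in the pulldown was 2.09 for Psme1 (1.91 to 2.28) and 1.69 for Psme2 (1.48 to 1.89), and in whole-cell RNA 0.23 and 0.27. Psme1 overlaps Emc9.

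The constitutive subunits that the immunoproteasome subunits displace can be set beside them in part. Psmb7, the counterpart of Psmb10, had 138 reads in the High and 149 in the Low pulldown and a log2 ratio of 0.29 (-0.05 to 0.63). Psmb5, the counterpart of Psmb8, had 60 and 55 reads in the High and Low pulldowns and a log2 ratio of 0.53 (-0.03 to 1.08). Both were lower in the pulldown than in whole-cell RNA in either state, Psmb7 by log2 ratios of -4.00 in High and -4.04 in Low. With the same scaling by library totals, 59.7% of all measured genes were called lower in both states. The medians over all measured genes were -2.16 in High and -1.76 in Low. With TMM, 2258 genes were called lower in both states in place of 7634. Psmb6 (chr11:70525324-70527858), the counterpart of Psmb9, had 1 read in the Low pulldown and was listed at 0 in the other 3 libraries. Of its 10 nearest protein-coding neighbours, 0 reached 10 reads in a whole-cell library, so a second stretch of low counts touches the proteasome genes. The cause of this was not tested.

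Of 15 genes for peptide loading, folding and trimming, all were measured and 1 was higher in the High pulldown, with none lower. Their median log2 ratio was -0.08. Over all measured genes 3.43% were higher and 2.90% lower, so 1 of 15 is not read as a result about the group. The higher gene was Tapbpl, the peptide editor TAPBPR related to tapasin. Tapbpl had 150 and 68 reads in the High and Low pulldowns and a log2 ratio of 1.54 (1.12 to 1.98). Its span overlaps that of E130112N10Rik. Calr, the calreticulin chaperone of the loading complex, had 26014 reads in the High and 17529 in the Low pulldown and a log2 ratio of 0.97 (0.94 to 1.00), whose interval reached just short of the line. For Calr the difference between the pulldown and whole-cell ratios was 1.27 (1.23 to 1.31), the only one of the 15 whose whole interval lay beyond the line. Over all genes with 10 or more reads in every library, 2.65% did so in this direction. In whole-cell RNA none of the 15 was called, and the log2 ratios farthest from 0 were those of the trimming peptidases Erap1 (0.47) and Npepps (-0.34).

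**Figure D3:**
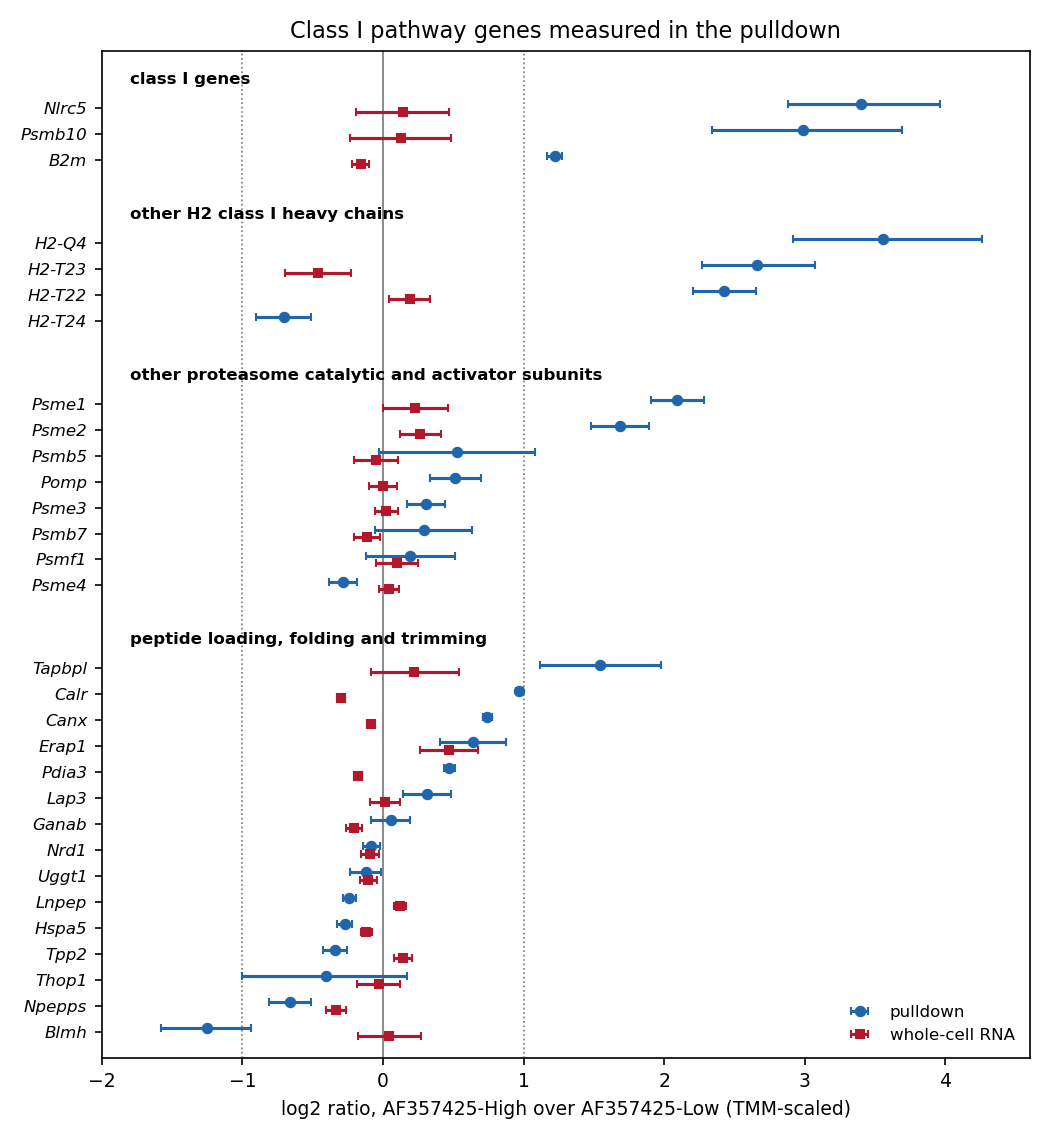
Log2 ratio of AF357425-High over AF357425-Low after TMM scaling, in the pulldown (circles) and in whole-cell RNA (squares), with exact 95% intervals, for the class I genes and 3 further groups measured in the pulldown; dotted lines mark 2-fold. Nlrc5, Psmb10 and B2m, 3 H2 chains, Psme1, Psme2 and Tapbpl lie to the right of the line in the pulldown, and every whole-cell value lies between the lines.

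Of 21 regulators of class I transcription, 17 were measured in the pulldown, with a median log2 ratio of 0.08. Of these 17, 3 were higher and none lower, against 3.43% and 2.90% of all measured genes. Irf7, an interferon-inducible factor of type I interferon genes, had 693 and 93 reads in the High and Low pulldowns, and 56 and 59 in High and Low whole-cell RNA, with a log2 ratio of 3.30 in the pulldown (2.98 to 3.63). Stat2, a transcription factor of the type I interferon response, had a log2 ratio of 1.38 (1.26 to 1.49) in the pulldown. Irf1 (0.08) and Rfx5 (0.07), named after their values were seen as direct activators of class I promoters, had intervals across 0 in the pulldown. In whole-cell RNA none of the 19 measured regulators was called.

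The 20 other interferon-stimulated genes, a group chosen with the pattern of these libraries known, were all measured in the pulldown, with a median log2 ratio of 2.29. Of these 20, 19 were higher and none lower, against 3.43% and 2.90% of all measured genes. In whole-cell RNA 0 of 17 were called, 13 of 17 ratios were above 0 and the median was 0.22. The genes farthest out in the pulldown were Oas1a (3.90), Ifit3 (3.76), Rsad2 (3.69) and Ifi44 (3.53), sensors and effectors of the antiviral response. Oas1a, at 7 reads and 0.252 CPM in the Low pulldown, passed the filter only through the High pulldown. Of the interferons and their receptors, 7 genes were measured in the pulldown, and none was called; farthest from 0 were the receptor kinase Jak2 (-0.94) and the interferon gamma receptor chain Ifngr1 (-0.65). Ifna4 had 30 reads in the High and 0 in the Low pulldown. With a floor of 3 reads in place of the 0, this was 13.2-fold higher, a value that leaves out counting error. Ifnb1 had 10 and 2 reads in the High and Low pulldowns. Both are named after their values were seen. Of 11 class II presentation genes, 9 lie in the chromosome 17 block and none was measured.

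The genes nearest to the median ratios of B2m, Psmb10 and Nlrc5 were sought among 10357 protein-coding genes that had 10 or more reads in every library. These 3 genes are part of the 10357 and were left out of the ranking. Likeness was the distance, over the 2 kinds of library, from the median log2 ratios of the 3 genes (2.99 in the pulldown and 0.13 in whole-cell RNA). Both medians are the values of Psmb10, so likeness to Psmb10 was ranked. The 5 nearest were Isg15 (distance 0.10), Oasl2 (0.21), Crlf3 (0.22), Bst2 (0.22) and Gnb4 (0.24). B2m (1.22 in the pulldown and -0.16 in whole-cell RNA) and Nlrc5 (3.40 and 0.14) lay farther from that point than these 5 genes. Isg15 had 2985 and 528 reads in the High and Low pulldowns, and 94 and 78 in High and Low whole-cell RNA. Isg15, a ubiquitin-like modifier, Oasl2, of the oligoadenylate synthetase family, and Bst2, the virus tether tetherin, are classical interferon-stimulated genes, and Gnb4 is a G protein beta subunit.

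**Figure D4:**
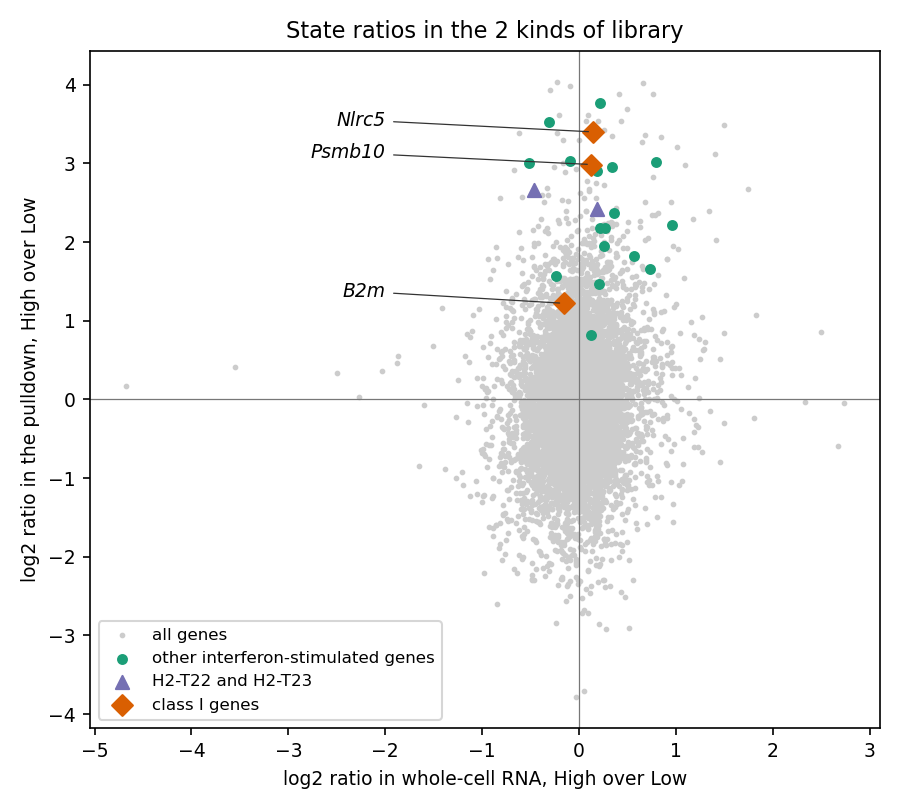
Log2 ratio of AF357425-High over AF357425-Low in the pulldown (vertical axis) against that in whole-cell RNA (horizontal axis), 1 point per gene, with B2m, Psmb10 and Nlrc5 as diamonds. The diamonds lie at 1.22, 2.99 and 3.40 on the vertical and between -0.16 and 0.14 on the horizontal axis, among the other interferon-stimulated genes, and H2-T22 and H2-T23 (triangles) lie near them.

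Markers of cells that could bring class I genes of their own were read beside these values. All 12 fibroblast markers had reads, and their summed level was 7999 CPM in the High and 8382 CPM in the Low pulldown, against 41890 and 52280 CPM in High and Low whole-cell RNA. The 5 leukocyte markers summed to 19.7 and 15.8 CPM in the High and Low pulldowns, and to 35.1 and 59.0 CPM in High and Low whole-cell RNA. Nearly all of this was Cd53, with 505 and 438 reads in the High and Low pulldowns, and 769 and 1266 in High and Low whole-cell RNA. Its log2 ratio of High over Low was 0.61 in the pulldown and -0.81 in whole-cell RNA, neither of them called, and the difference of 1.42 (1.19 to 1.64) lay beyond the 2-fold line, as that of B2m did. The pan-leukocyte marker Ptprc had 3 and 2 reads in the High and Low pulldowns, and Laptm5 was listed at 0 in all 4 libraries. The 9 macrophage and dendritic cell markers summed to 2.32 and 2.01 CPM in the High and Low pulldowns, and to 12.95 and 12.26 CPM in High and Low whole-cell RNA. Adgre1, C1qa, C1qb and Flt3 were listed at 0 in all 4 libraries. In High and Low whole-cell RNA, Cd14 had 110 and 107 reads, Cd68 71 and 56, Lyz2 53 and 50, and Csf1r 52 and 50. In the High and Low pulldowns, Cd14 had 28 and 4 reads and Lyz2 12 and 4, whereas Csf1r and Cd68 each had 10 and 24. The markers of T and NK cells, B cells and mast cells together had at most 3 reads in any library. The 5 endothelial markers summed to 3.44 and 6.04 CPM and the 5 keratinocyte markers to 0.232 and 0.144 CPM in the High and Low pulldowns. Chondrocyte markers summed to 111 and 136 CPM in the High and Low pulldowns and to 262 and 185 CPM in High and Low whole-cell RNA. In whole-cell RNA 2 of 4 measured chondrocyte markers were called higher in High, against 0.111% of all measured genes. All 4 ratios were above 0, with a median log2 ratio of 1.04. Col2a1 had 1922 and 766 reads in High and Low whole-cell RNA, and Cnmd 99 and 14. In the pulldown 0 of 3 were called. The part of any of these markers in the results was not tested.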

How the data were processed

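RNA was sequenced from 4 groups of cells with 1 library each. The values the authors deposited were counts, whole numbers of fragments per gene without normalization, in a table for each kind of library. Per the submitters' processing notes, cutadapt 2.4, STAR 2.6.0c, HTSeq 0.9.1, StringTie 1.3.4 and the build GRCm38 were used; the sources used here do not give the annotation or the strand setting. The summary lines of the counter were left out of the gene values. Symbols were paired with 55450 IDs, and positions came from RefSeq (GRCm38.p6). A gene counted as measured from a mean of 1 CPM in the libraries compared. The states were compared after TMM scaling (edgeR 4.0.16, R 4.3.3; factors 1.02 and 0.978 for High and Low whole-cell RNA, 0.903 and 1.11 for the High and Low pulldowns), and the pulldown against whole-cell RNA by library totals, since TMM takes most genes as equal and mitochondrial RNA filled most of the pulldown. Intervals are at 95%. With 1 library per group no test was run, and p-values are not given. The computation of ratios and intervals was tested on simulated data. Alternatives were library totals, DESeq2 1.42.0 size factors, totals without the top 20 genes or without mitochondrial genes, no filter, 5 CPM, and a 1.5-fold line.

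The 10 genes, the further gene groups and the markers were chosen with earlier results of these data known. Of each further group, up to 4 called genes with the largest log2 ratio were named, or 2 where none was called; other genes are marked as named after their values were seen. Motifs were searched on both strands of the 250 bases upstream. A withheld item among the further genes is not reported here.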

Additional observations from a re-analysis of the deposited data

Results flagged for a closer look

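For B2m the states moved in opposite directions in the kinds of library: the log2 ratio of High over Low was 1.22 (1.17 to 1.28) in the pulldown and -0.16 (-0.22 to -0.10) in whole-cell RNA, a difference of 1.38. For H2-T23 it was 2.66 (2.27 to 3.07) in the pulldown and -0.46 (-0.70 to -0.23) in whole-cell RNA, a difference of 3.12. For Procr it was 2.24 (1.86 to 2.63) in the pulldown and -0.21 (-0.38 to -0.03) in whole-cell RNA, a difference of 2.45. Ifit2, an interferon-stimulated gene that binds foreign RNA, had 3.0 (2.83 to 3.17) in the pulldown and -0.51 (-0.73 to -0.30) in whole-cell RNA, a difference of 3.51. Each group has 1 library, so these differences were not tested between groups, and the intervals cover counting error only.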

How the results depend on the processing

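No ratio of B2m, Psmb10 or Nlrc5 between the states changed sign under any alternative. In the pulldown it ranged from 0.93 to 1.22 for B2m, from 2.69 to 2.99 for Psmb10 and from 3.11 to 3.40 for Nlrc5. With library totals B2m lost its call, and at 5 CPM Psmb10 was no longer measured. With pulldown against whole-cell RNA scaled by TMM or by the median of ratios, 1 class I gene (B2m) was called higher in both states, where library totals gave 0. Over all genes, the pulldown calls were 238 higher and 608 lower with library totals, 674 and 519 without a filter, 188 and 114 at 5 CPM and 828 and 843 at 1.5-fold, against 368 and 311. In whole-cell RNA they were 30 higher without a filter, 7 and 8 at 5 CPM and 59 and 77 at 1.5-fold, against 15 and 18. In both states the pulldown was higher for 1151 and lower for 2258 genes with TMM, 1242 and 2128 with the median of ratios, 889 and 2771 without the top 20 genes and 869 and 2788 without mitochondrial genes, against 200 and 7634; at 5 CPM 121 were higher. The difference of the ratios gave 135 and 578 calls with library totals, 187 and 383 without mitochondrial genes, 517 and 398 without a filter and 795 and 674 at 1.5-fold, against 301 and 189. No paired analysis was possible because each group has 1 library. The few reads in the Low pulldown, 23 for Psmb10 and 34 for Nlrc5, largely set the width of their pulldown intervals. The 7 genes of the chromosome 17 block allow no statement on their level.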
